A study of Homo sapiens with 4 samples.

Results

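The C/EBP transcription factors were followed in T24 cells, which are cultured human bladder cancer cells, as the genes CEBPA, CEBPB, CEBPD, CEBPG and CEBPZ. The members were taken by gene name from the deposited expression table, where all 5 of them were found among 60623 genes. Of the 4 libraries, 2 came from cells transfected with a mimic of the microRNA miR-146a-5p and 2 from cells given a scramble control. The mimic is named in the study's description, while the sample labels give only miR-146a-5p overexpression. No genetic change is named for either group in the labels, and the dose and the time of harvest are not given in the sources used here. Because T24 is 1 tumour-derived line, the values describe that line. The labels do not say whether replicate libraries stem from different cultures. A p-value here is therefore set against the variation among the 4 libraries alone, and that variation can be technical.

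C/EBP proteins bind DNA as pairs through a basic region and a leucine zipper, on a palindromic site close to TTGCNNAA, where N is any base. CEBPB and CEBPD are the members induced in inflammation, with interleukin-6, acute-phase proteins and neutrophil chemokines among their known targets, and CEBPA is known for differentiation and growth arrest in fat, liver and myeloid cells. CEBPG lacks an activation domain and acts through its partners, among them ATF4 in the response to amino-acid shortage. CEBPZ shares the name but not the zipper: it belongs to the CBF/Mak21 family of nucleolar proteins, and its yeast counterpart Noc1 takes part in assembly of the large ribosomal subunit.

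Total estimated counts were 21544243 and 20290055 in the miR-146a-5p libraries and 22388468 and 22774090 in the scramble libraries. Scramble replicate 2 stood apart from the other libraries, and each member is therefore also given against each scramble library alone. The Pearson correlation of log2 CPM (counts scaled to a common library total) across genes was 0.989 between the miR-146a-5p libraries and 0.925 between the scramble libraries. The keratins KRT7, KRT8 and KRT18 were abundant in all 4 libraries, while the urothelial markers KRT5 and UPK3A had 0 counts and CDH1, E-cadherin, at most 2. KRT19 had 340.0 and 294 counts with miR-146a-5p against 713 and 969 in scramble, below both controls without passing DESeq2 (log2 fold change -1.31, adjusted p = 0.0681). EPCAM, with 32 and 30 counts against 19 and 20, and GATA3, with 11 and 25 against 6 and 5, were above both controls at low counts and did not pass either. Of the leukocyte list, 1 of 9 markers (CD14) reached the testing filter, and CD3E, MS4A1 and FCGR3A were at 0 in every library. The summed level of the list was 1.54 and 0.882 CPM with miR-146a-5p against 1.12 and 1.85 CPM in scramble. CD14 made up most of that sum, at 1.17 and 0.539 CPM against 1.07 and 1.80 CPM. At very low counts, ITGAM had 6 and 3 with miR-146a-5p against 0 and 1, PTPRC 1 and 4 against 0 and 0, and LYZ 0 and 0 against 1.02 and 0. The 5 endothelial markers, none of which reached the filter, summed to 0.140 and 0.588 CPM with miR-146a-5p against 0.134 and 0.308 CPM in scramble. IRAK1, an established target of this microRNA and the gene used here to check the labels, had 2329 and 2217 counts in the miR-146a-5p libraries and 11155 and 16314 in the scramble libraries (DESeq2 adjusted p = 5.03e-09, edgeR adjusted p = 0.728).

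The microRNA pairs with messenger RNAs through its seed, bases 2 to 8. The mature sequence (RefSeq, GRCh38.p14, chr5:160485372-160485393, plus strand) is shown with the seed in capitals, because the seed defines what was searched in the members. One site in the 3′ UTR of IRAK1 (GENCODE release 29, GRCh38, chrX:154011812-154011819, minus strand) is shown for orientation, with the 8 letters that match the seed and the base after it in capitals.
hsa-miR-146a-5p: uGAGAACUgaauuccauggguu
IRAK1 site: ccggaagtcaaAGTTCTCAtggtcagaagt
The search took the seed match AGTTCTC, and also GTTCTCA, which drops its first letter and adds an A at the end. Either string was found in the 3′ UTR of 0 of the 5 members. Both were also absent from the rest of all 8 annotated transcripts of the members. Among tested genes with an annotated 3′ UTR, 2594 of 12345 (21.01%) held either string or both. The absence says only that these letters are not in the annotated transcripts.

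On the length-scaled TPM scale (transcript abundance scaled by length and library), CEBPZ and CEBPB were the most abundant members in the miR-146a-5p libraries and CEBPA the least. CEBPZ had 51.0 and 55.5 TPM there and CEBPB had 33.3 and 44.9 TPM. CEBPD, at 10.3 and 14.9 TPM, and CEBPG, at 11.8 and 12.6 TPM, did not differ beyond their spread. CEBPA had 0.16 and 0.35 TPM. In scramble replicate 1 the order was CEBPZ, CEBPB, CEBPG, CEBPD and CEBPA, at 58.8, 22.8, 12.9, 8.61 and 0.26 TPM. In scramble replicate 2 it was CEBPB, CEBPD, CEBPZ, CEBPG and CEBPA, at 42.5, 15.35, 12.6, 9.87 and 0.39 TPM, so that CEBPZ held the first place in one control and the third in the other.

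Among the 4 members with a leucine zipper, CEBPB supplied most of the summed TPM in every library. The sum was 55.6 and 72.8 TPM with miR-146a-5p and 44.6 and 68.1 TPM in scramble. The share of CEBPB in the sum was 59.97% and 61.7% in the miR-146a-5p libraries and 51.2% and 62.4% in the scramble libraries. CEBPG took 21.3% and 17.3% with miR-146a-5p against 28.9% and 14.5% in scramble. Both quantities overlapped between the groups. The ratio of CEBPB to CEBPD TPM was 3.25 and 3.01 with miR-146a-5p against 2.65 and 2.77 in scramble. That ratio and the share of CEBPA, at 0.288% and 0.481% against 0.584% and 0.573%, did not overlap between the groups. Both were singled out after their values were seen and were not tested. The share of CEBPA rests on 6.75 to 18.9 counts a library. For scale, 18.0% of all genes lay above both scramble libraries with miR-146a-5p in CPM, and 17.9% lay below both. TPM here is a share of all transcripts, and in bulk RNA fewer cells of a type and less RNA per cell cannot be told apart.

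**Figure D1:**
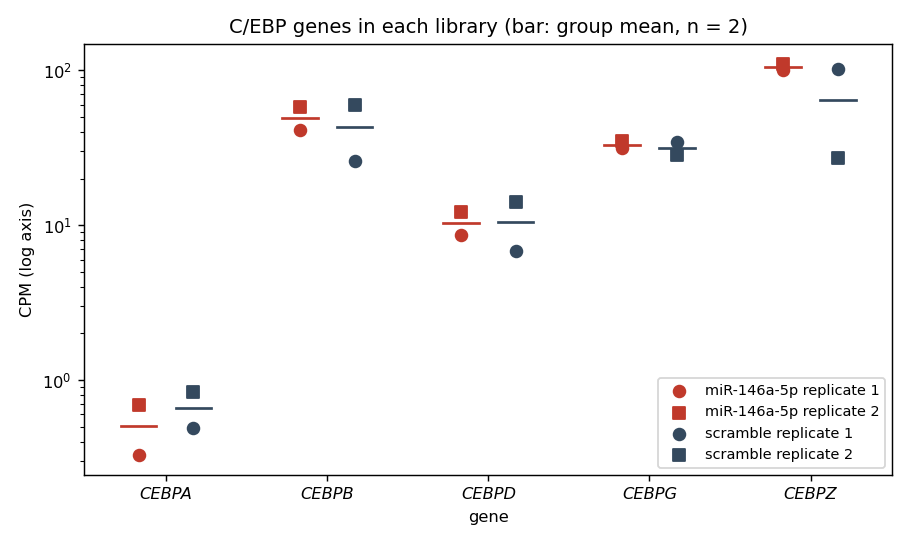
Level of each C/EBP member in each library, in CPM on a log axis, with miR-146a-5p left of scramble; points are libraries and bars are group means. The miR-146a-5p points of CEBPZ, at 100.4 and 110.5 CPM, lie close together, while its scramble points, at 102 and 27.2 CPM, lie far apart.

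CEBPB encodes the inflammatory activator also called LAP or NF-IL6. It is an intronless gene (ENSG00000172216, GRCh38 chr20:50190734-50192689, plus strand, 1 exon) with a transcript GC content of 66.2%. Its estimated counts were 879.9 and 1179.9 in the miR-146a-5p libraries and 584 and 1361 in the scramble libraries. In CPM it had 41.1 and 57.8 with miR-146a-5p against 26.1 and 59.8 in scramble, so both miR-146a-5p libraries lay between the controls and the groups overlapped. The means were 49.5 ± 11.8 CPM with miR-146a-5p and 43.0 ± 23.8 CPM in scramble (SD, n = 2 each). Its log2 fold change of miR-146a-5p over scramble was 0.20 ± 0.48 (SE, 95% interval -1.09 to 1.49), with an edgeR adjusted p of 0.972. The interval leaves room for changes in either direction larger than 2-fold.

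Against scramble replicate 1 alone CEBPB was higher with miR-146a-5p, and against scramble replicate 2 alone it was lower. The log2 fold change was 0.93 against replicate 1 (edgeR adjusted p = 1.71e-14) and -0.27 against replicate 2 (edgeR adjusted p = 0.0114). In these fits the spread comes from the miR-146a-5p pair alone and is taken to hold for the single control too. Against replicate 1 edgeR called 21.7% of all genes, 10.1% as higher, and against replicate 2 it called 54.9%, of which 28.5% were higher and 26.4% lower as shares of all genes. DESeq2 put neither difference of CEBPB past the threshold (adjusted p = 0.172 against replicate 1 and 0.667 against replicate 2). The direction thus depended on which control was used, and the call on the tool.

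The CEBPB promoter is shown because CEBPB carried most of the zipper-family TPM. It runs from 250 bases before to 50 bases after one of the 2 starts that RefSeq lists for the gene (GRCh38.p14, chr20:50190580-50190879, plus strand), and the capitals mark, in order, a CCAAT box, a CRE half-site TGACG and a TATA box TATAAA.
CEBPB promoter: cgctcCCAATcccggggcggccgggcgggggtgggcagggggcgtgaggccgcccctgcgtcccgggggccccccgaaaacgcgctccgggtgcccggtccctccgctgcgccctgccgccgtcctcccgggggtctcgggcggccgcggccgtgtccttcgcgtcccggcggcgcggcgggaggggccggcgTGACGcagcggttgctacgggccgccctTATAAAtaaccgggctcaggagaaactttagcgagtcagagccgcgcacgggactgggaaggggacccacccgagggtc
The CRE half-site lay 57 to 53 bases before the start and the TATA box 29 to 24. Of 35116 RefSeq promoter windows of the same length, CCAAT was in 34.6%, TGACG in 24.6% and TATAAA in 11.5%, counting both strands. The C/EBP site TTGCNNAA, held by 10.5% of promoters, and the NF-kB site GGNNTTTCC, held by 6.26%, were not found in the windows of CEBPA, CEBPB, CEBPG or CEBPZ. These are matches of letters, not binding data.

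CEBPA, encoding the differentiation factor, was near the limit of detection. It is a 1-exon gene (ENSG00000245848, GRCh38 chr19:33299934-33302564, minus strand) with a transcript GC content of 65.9%. Its estimated counts were 6.75 and 13.9 with miR-146a-5p against 10.95 and 18.9 in scramble, or 0.327 and 0.686 CPM against 0.492 and 0.835 CPM. The groups overlapped. The log2 fold change was -0.39 ± 0.61 (SE, 95% interval -2.04 to 1.26), with an edgeR adjusted p of 0.970. In log2 CPM the miR-146a-5p mean was -0.03 from scramble replicate 1 and -0.70 from replicate 2. A change of 2-fold in either direction lies inside the interval.

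CEBPD encodes the acute-phase partner of CEBPB (ENSG00000221869, minus strand of chromosome 8, 1 exon), and its transcript GC content of 70.0% was the highest among the members. It had 184 and 249 counts in the miR-146a-5p libraries and 153 and 319 in the scramble libraries. In CPM the values were 8.60 and 12.2 with miR-146a-5p against 6.85 and 14.02 in scramble. As for CEBPB, both miR-146a-5p libraries lay between the controls. The means were 10.4 ± 2.54 CPM with miR-146a-5p and 10.4 ± 5.08 CPM in scramble (SD, n = 2 each), and the log2 fold change was -0.0051 ± 0.44 (SE, 95% interval -1.21 to 1.20, edgeR adjusted p = 0.997). Against scramble replicate 1 alone it was 0.61 and against replicate 2 alone -0.43, so its direction also followed the control. As for CEBPB, the spread in these fits comes from the miR-146a-5p pair alone.

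CEBPG, the partner-dependent member, differed least of the 5 members between the scramble libraries. Its gene (ENSG00000153879, GRCh38 chr19:33373330-33382686, plus strand) has 2 exons and a transcript GC content of 43.9%. The counts were 671 and 710.0 with miR-146a-5p against 769 and 645 in scramble, or 31.4 and 34.8 CPM against 34.4 and 28.4 CPM. The groups overlapped, with a log2 fold change of 0.08 ± 0.22 (SE, 95% interval -0.51 to 0.66, edgeR adjusted p = 0.972). This was the narrowest interval of the 5 members, and it does not reach a 2-fold change in either direction. In log2 CPM the miR-146a-5p mean differed by -0.06 from scramble replicate 1 and by 0.22 from replicate 2.

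CEBPZ, the nucleolar member, had like levels in 3 libraries and a lower one in the other. The gene (ENSG00000115816, GRCh38 chr2:37201612-37231713, minus strand) has 16 exons and a transcript GC content of 39.6%, the lowest of the 5. Counts were 2148 and 2255 with miR-146a-5p against 2279 and 619 in scramble, or 100.4 and 110.5 CPM against 102 and 27.2 CPM. The scramble replicate 1 value lay between the miR-146a-5p values, so the groups overlapped. Group means were 105 ± 7.11 CPM with miR-146a-5p and 64.6 ± 52.9 CPM in scramble (SD, n = 2 each), and the log2 fold change was 0.71 ± 0.66 (SE, 95% interval -1.08 to 2.50, edgeR adjusted p = 0.970). Against scramble replicate 2 alone the log2 fold change was 1.96, while the difference in log2 CPM from scramble replicate 1 alone was 0.05. As for CEBPB, the spread in the fit against replicate 2 alone comes from the miR-146a-5p pair alone. DESeq2 called 22.5% of all genes higher in that fit, CEBPZ among them.

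None of the 5 members passed edgeR's quasi-likelihood test with Benjamini-Hochberg adjustment, against 0.0% of the 14810 genes tested, and none passed DESeq2, against 0.324%. At an unadjusted edgeR p under 0.05 there were 549 of all genes (3.71%) and 0 members. No member was above both scramble libraries in both miR-146a-5p libraries, against 18.0% of all genes, and none was below both, against 17.9%. In the authors' deposited table the 5 members are likewise marked as not significant, with fold changes of miR-146a-5p over scramble of 0.755 for CEBPA, 1.14 for CEBPB, 0.989 for CEBPD, 1.04 for CEBPG and 1.60 for CEBPZ.

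**Figure D2:**
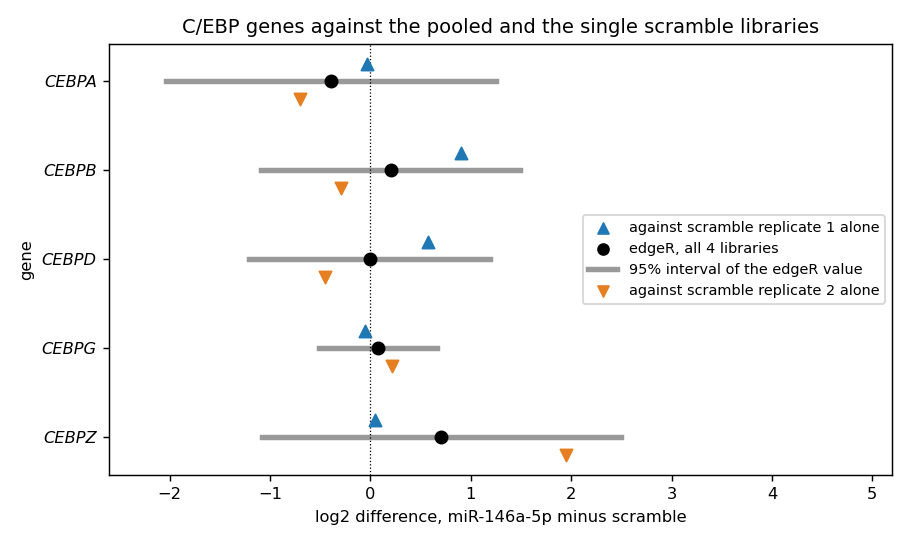
Log2 fold change of miR-146a-5p over scramble for each member from the edgeR fit of all 4 libraries, with 95% intervals, and the difference in log2 CPM of the miR-146a-5p mean from each scramble library alone (triangles). For CEBPB the differences from replicates 1 and 2 are 0.90 and -0.29, on opposite sides of 0, as they are for CEBPD.

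The difference between the 2 scramble libraries was larger in size than the 4-library log2 fold change for every member. Against scramble replicate 2 alone, the differences of CEBPA (-0.70) and CEBPZ (1.95) were slightly larger than those between the scramble libraries. In log2 CPM, scramble replicate 2 minus replicate 1 was 0.67 for CEBPA, 1.19 for CEBPB, 1.02 for CEBPD, -0.28 for CEBPG and -1.90 for CEBPZ. The 3 intronless, GC-rich genes were higher in replicate 2, and the 2 genes with introns and lower GC content were lower. Between the miR-146a-5p libraries the corresponding differences, replicate 2 minus replicate 1, were 0.89, 0.49, 0.50, 0.15 and 0.14. Those of CEBPA, CEBPB and CEBPD were exceeded in size by 3.48%, 10.03% and 9.65% of all genes, whereas between the scramble libraries 34.4%, 19.8% and 22.8% of genes differed more. For CEBPZ the order was the other way, with 44.1% of genes differing more between the miR-146a-5p libraries and 10.4% between the scramble libraries. The miR-146a-5p difference of CEBPA is between 6.75 and 13.9 counts, whereas these shares are over tested genes of any level.

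**Figure D3:**
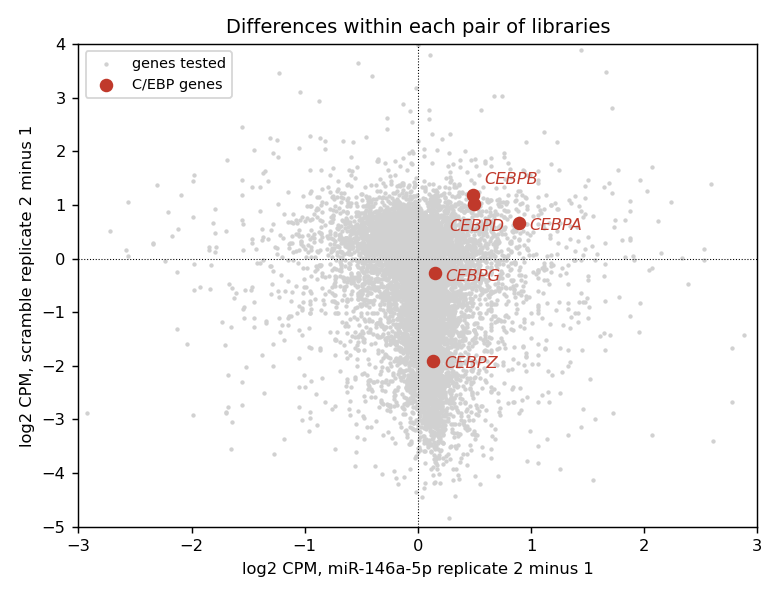
Difference between replicates in log2 CPM, with the miR-146a-5p pair on one axis and the scramble pair on the other, for all tested genes (grey) and the members (coloured); genes beyond the axis limits are not drawn. CEBPZ lies at -1.90 and CEBPB at 1.19 on the scramble axis, while no member exceeds 0.89 on the miR-146a-5p axis.

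The scramble difference moved with transcript GC content across the whole table. When tested genes were put into 10 bins of equal size by GC content, the bin of CEBPA, CEBPB and CEBPD (61.7% to 75.2%) had a median scramble difference of 0.57, with quartiles of 0.44 and 0.72. Both CEBPB and CEBPD exceeded the upper quartile of that bin, and CEBPA lay within it. The bin of CEBPG (43.3% to 45.7%) had a median of -0.20, and that of CEBPZ (38.7% to 41.1%) had a median of -1.26 with a lower quartile of -1.99. CEBPG and CEBPZ were therefore inside the middle range of genes of like GC content. The miR-146a-5p pair had medians of -0.06, 0.02 and 0.08 in the same 3 bins. There CEBPA, CEBPB and CEBPD, at 0.89, 0.49 and 0.50, were above the upper quartile of their bin, 0.07. For CEBPA this rests on 6.75 and 13.9 counts. CEBPG, at 0.15, was slightly above its upper quartile of 0.12, and CEBPZ, at 0.14, lay between its quartiles of -0.01 and 0.17.

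**Figure D4:**
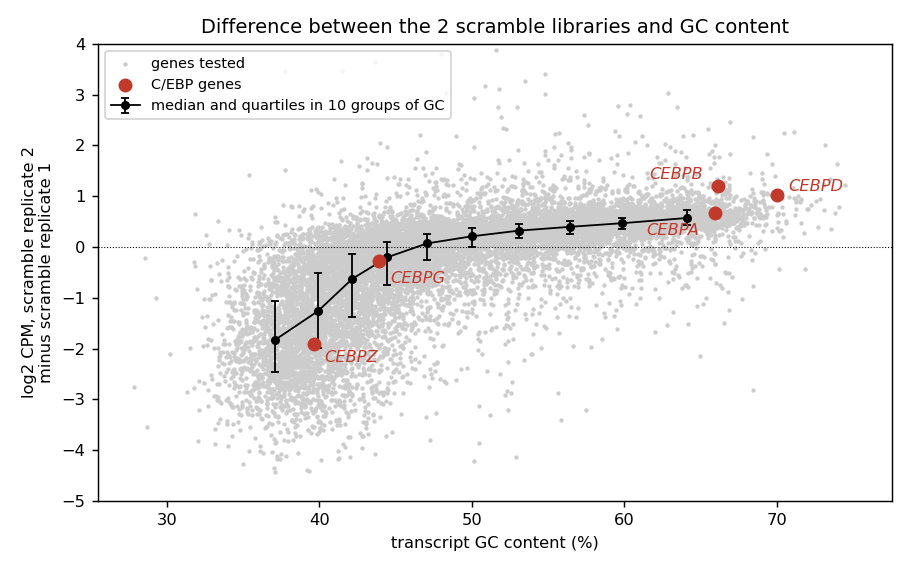
Difference between the scramble libraries in log2 CPM (replicate 2 minus replicate 1) against transcript GC content in percent, with bin medians and quartiles and the 5 members marked. Medians run from -1.83 in the bin of lowest GC content to 0.57 in the highest, and CEBPB and CEBPD sit above theirs.

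Intronless genes of like composition were compared next. The 59 tested protein-coding genes with 1 exon and a GC content of at least 60% had a median scramble difference of 0.74 (quartiles 0.51 and 0.94), against 0.11 for all genes. Their median difference of miR-146a-5p from scramble replicate 1 was 0.38 and from replicate 2 was -0.47, with opposite signs, as for CEBPB (0.90 and -0.29) and CEBPD (0.58 and -0.45). CEBPA, also among the 59, had -0.03 and -0.70, with the same sign. With offsets for GC content and transcript length in the edgeR fit, the log2 fold change was 0.49 ± 0.28 for CEBPB (SE, adjusted p = 0.546), 0.25 for CEBPD, -0.18 for CEBPA, -0.10 for CEBPG and 0.48 ± 0.22 for CEBPZ (SE, adjusted p = 0.485), and no gene passed. The part of GC content in any single member's difference was not tested.

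The genes whose pattern over the 4 libraries was most like that of a member were ranked by Euclidean distance between centred log2 CPM profiles, among 10723 genes with a mean of at least 5 CPM. For CEBPB the nearest were PXN-AS1 (0.19), HEXIM2 (0.21) and CEBPD (0.27), and for CEBPD they were HOXD11 (0.12), PLEKHN1 (0.13) and HEXIM2 (0.16). CEBPD was thus listed for CEBPB, at a distance beyond 0.2, but CEBPB was not among the genes listed for CEBPD. For CEBPZ the nearest were MACROD2 (0.042), RAD17 (0.044) and CDC73 (0.052), and for CEBPG they were FAM210A (0.025), ARF6 (0.036) and NUP42 (0.044). CEBPA, at its low counts, was nearest to SMG1P3 (0.14), U52111.1 (0.21) and AL358472.6 (0.26). Within a distance of 0.2 there were 534 genes for CEBPG and 140 for CEBPZ, but 5 for CEBPD and 1 each for CEBPA and CEBPB. The distances rest on 4 libraries and are descriptions.

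Of the related genes outside the 5 members, CEBPE, the granulocyte factor, had 0 counts in every library. A count of 0 allows up to 3 counts per library, or 0.140 and 0.147 CPM with miR-146a-5p and 0.134 and 0.132 CPM in scramble, for counting error only. DDIT3, the stress-induced partner also called CHOP, had 283 and 260.2 counts with miR-146a-5p against 216 and 305 in scramble. Its groups overlapped (log2 fold change 0.17 ± 0.26, edgeR adjusted p = 0.970). Transcripts beside the members were scarce or overlapped too. CEBPB-AS1, which overlaps CEBPB on the opposite strand, had 10.06 and 6.06 counts with miR-146a-5p against 1.01 and 7.12 in scramble. CEBPZOS, which overlaps CEBPZ on the opposite strand, had 562 and 601 counts against 958 and 627 (log2 fold change -0.34, edgeR adjusted p = 0.970). CEBPA-DT had 1 and 0 counts with miR-146a-5p against 5 and 3 in scramble, and NDUFAF7, beside CEBPZ, had a log2 fold change of -0.09. No source used here says whether counting used strand, and without strand, reads from such overlaps cannot be told apart.

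Of the dimer partners and upstream regulators of the family, 1 gene passed DESeq2. Of 10 bZIP partners, 8 were tested, none passed DESeq2 or edgeR, and their median log2 fold change was -0.03 against -0.0014 for all genes. ATF4, the amino-acid response factor, had 10209 and 9342 counts with miR-146a-5p against 8743 and 10820.0 in scramble, and ATF2 had 1079 and 1152 against 1090.0 and 201, low in scramble replicate 2 like CEBPZ. ATF5 had 24.03 ± 3.16 CPM with miR-146a-5p and 28.4 ± 5.26 CPM in scramble, and ATF3, a stress-induced factor, 7.49 ± 1.53 and 6.41 ± 0.0768 CPM (SD, n = 2 each). Of 18 regulators, 1 passed DESeq2 (0.274% of all genes passed as higher), namely the cytokine IL6, which is both inducer and target of CEBPB. Among the other 17, IL6R, its receptor, had 38 and 54 counts with miR-146a-5p against 101 and 125 in scramble without passing DESeq2 (log2 fold change -1.20, adjusted p = 1.00). SIAH2, a ubiquitin ligase, had 341 and 331 against 486 and 837 counts.

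Among known acute-phase and inflammatory C/EBP targets, 6 genes were higher with miR-146a-5p by DESeq2. Of the 30 listed, 13 were tested, 6 passed DESeq2 as higher (0.274% of all genes did), 0 passed as lower (0.0499%), and 7 did not pass. The median log2 fold change of the 13 was 2.30, against -0.0014 for all genes. The list was drawn up with earlier results of these libraries known, so its direction is not independent evidence, and edgeR called 0 of the 13, with 9 at an unadjusted p under 0.05.

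C3, the central complement component, CXCL1 and CXCL8, the neutrophil chemokines, IL6, CSF3, the granulocyte colony-stimulating factor, and IL1B, interleukin-1 beta, were the 6 that passed. CSF3 had 3154 and 3084 counts with miR-146a-5p and 504 and 827 in scramble, a log2 fold change of 2.33 ± 0.40 (SE, DESeq2 adjusted p = 6.91e-06). IL6 had 653 and 550.0 counts against 119 and 144 (2.28 ± 0.35, DESeq2 adjusted p = 1.81e-07), and IL1B had 4561 and 4167 against 1722 and 2054 (1.30 ± 0.30, DESeq2 adjusted p = 0.00778). In all of these the groups did not overlap. PTX3, a pentraxin that also lies on the list, had 1245 and 1121 counts against 1208 and 1399 and its groups overlapped, and LCN2, lipocalin-2, had 35 and 28 against 4 and 0 without passing DESeq2 (adjusted p = 0.265).

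Most of the tested targets lay above both controls. For those called by DESeq2 this adds nothing, because the call came from the same libraries. The median difference of the 13 targets in log2 CPM was 2.41 from scramble replicate 1 and 2.03 from replicate 2, and 10 of 13 were above both controls, against 18.0% of all genes. Summed over the list, the targets stood at 1731 and 1682 CPM with miR-146a-5p and at 316 and 379 CPM in scramble. The 7 fibroblast markers, of which COL1A1 alone reached the filter, summed to 4.49 and 5.29 CPM against 2.28 and 2.64 CPM, and their part in the target result was not tested. COL1A1 had 78 and 80.0 counts with miR-146a-5p against 37 and 58 in scramble, and COL3A1 8 and 10 against 1 and 0, both above both controls without passing DESeq2 (adjusted p = 1.00 for each). The other markers were scarce and did not all share this direction. COL1A2 had 5 and 12 counts with miR-146a-5p against 8 and 0 in scramble, and its groups overlapped. PDGFRA had 0 and 2 against 2 and 2, and DCN 4 and 2 against 2 and 0. LUM and FAP had at most 1 count in any library.

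**Figure D5:**
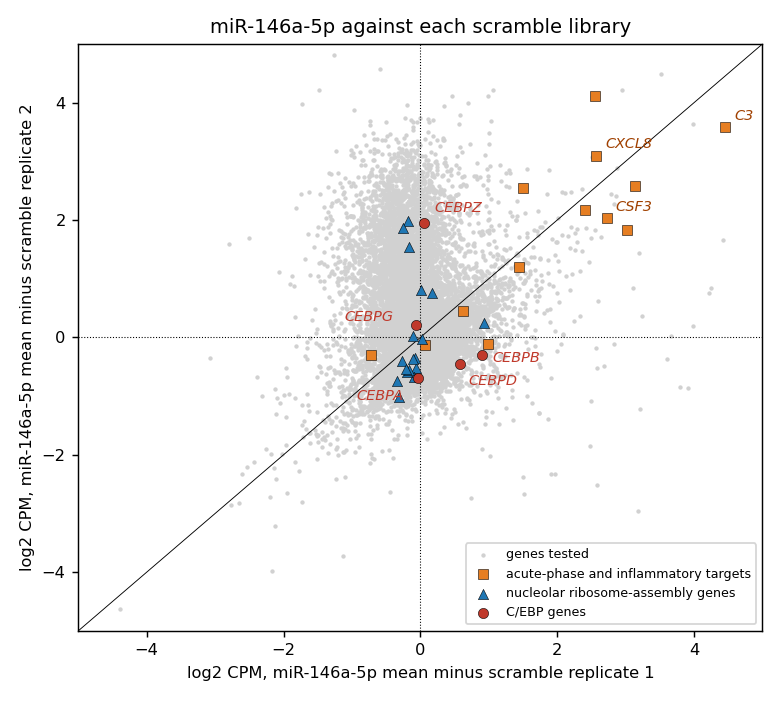
Difference of the miR-146a-5p mean in log2 CPM from scramble replicate 1 (horizontal) and from scramble replicate 2 (vertical) for the members (circles), tested acute-phase and inflammatory targets (squares), nucleolar ribosome-assembly genes (triangles) and all tested genes (grey); on the diagonal both differences are equal, and genes beyond the axis limits are not drawn. C3 and CXCL8 lie far above 0 on both axes, while CEBPB and CEBPD have opposite signs on the 2 axes.

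The promoters of IL6 and CXCL8 are shown because both targets were called by DESeq2, IL6 holding the site TTGCNNAA and CXCL8 the shorter palindrome TTGCAA, a different string (RefSeq, GRCh38.p14, IL6 chr7:22726950-22727249 and CXCL8 chr4:73740319-73740618, both plus strand). Capitals mark all matches, on either strand, to TTGCNNAA, TTGCAA, the NF-kB site GGNNTTTCC, and the CCAAT box, CRE half-site and TATA box searched in CEBPB.
IL6 promoter: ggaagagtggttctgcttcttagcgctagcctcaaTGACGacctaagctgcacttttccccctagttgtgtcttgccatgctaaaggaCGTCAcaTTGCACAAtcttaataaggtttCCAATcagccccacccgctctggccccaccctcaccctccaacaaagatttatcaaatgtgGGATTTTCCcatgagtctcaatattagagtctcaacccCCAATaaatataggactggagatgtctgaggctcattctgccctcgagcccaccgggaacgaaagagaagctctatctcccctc
CXCL8 promoter: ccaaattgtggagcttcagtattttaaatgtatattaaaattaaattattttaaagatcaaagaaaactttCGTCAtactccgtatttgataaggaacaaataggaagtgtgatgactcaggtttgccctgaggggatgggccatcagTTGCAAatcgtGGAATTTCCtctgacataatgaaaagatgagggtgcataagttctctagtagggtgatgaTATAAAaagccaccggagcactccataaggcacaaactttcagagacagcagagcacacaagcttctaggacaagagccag
In IL6 a TTGCNNAA match lay 155 to 148 bases before the start and an NF-kB match 72 to 64. In CXCL8 there was no TTGCNNAA match; TTGCAA, held by 5.51% of all promoters, lay 102 to 97 bases before the start and an NF-kB match 91 to 83. CXCL1, which DESeq2 called too, held neither C/EBP string but 2 NF-kB matches. IL1B, also called, held TTGCNNAA from 215 to 208 bases before the start, with TTGCAA inside it, and no NF-kB match. PTX3, whose groups overlapped, held a TTGCNNAA match. A match is a description of the sequence and says nothing of binding here.

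In the lists tied to the other members, no gene passed either test. None of 14 amino-acid response genes of ATF4 and CEBPG passed DESeq2 or edgeR; 4 of the 14 lay above both controls (18.0% of all genes did) and 4 below both (17.9%). SLC7A5, a large neutral amino-acid transporter subunit, had 795 ± 26.0 CPM with miR-146a-5p and 1192 ± 318 CPM in scramble (SD, n = 2 each), and VLDLR, the lipoprotein receptor, had 21.1 ± 0.802 and 14.99 ± 0.2497 CPM. SLC3A2, the partner chain of SLC7A5, had 289 ± 19.3 CPM with miR-146a-5p and 405 ± 92.5 CPM in scramble. Of 18 nucleolar ribosome-assembly genes, none passed, and 10 lay below both controls (17.9% of all genes did) and 2 above (18.0%). Their median log2 fold change was -0.24, against -0.0014 for all genes. By GC bin, the median over all genes ran from 0.38 at the lowest GC content to -0.23 at the highest. The part of GC content in the list median was not tested. BOP1 and RRP12, factors of ribosome assembly, had log2 fold changes of -0.71 and -0.56, and EBNA1BP2, another such factor, of -0.39. CEBPZ itself was at 0.71 and overlapped the controls. NOC3L, MAK16 and DDX18, chosen after their values were seen, were low in scramble replicate 2 like CEBPZ. They had 766, 206 and 1290.0 counts there against 3383, 893 and 4165 in replicate 1. The list as a whole did not share this. Its median difference in log2 CPM, scramble replicate 2 minus replicate 1, was 0.27. In the GC bins of NOC3L, MAK16 and DDX18 the median of that difference over all genes was -1.83, -0.63 and -1.26. The part of GC content in the values of these genes was not tested. Of 17 differentiation and growth-arrest targets, 4 were tested and none passed, with a median log2 fold change of 0.20. PPARG, the fat-cell regulator, had 615 and 574 counts with miR-146a-5p against 913 and 1035 in scramble and lay below both controls. The other 3 lay above both (18.0% of all genes did). SCD, a fatty-acid desaturase, had 426 ± 2.95 CPM with miR-146a-5p and 365 ± 13.2 CPM in scramble. The cell-cycle inhibitor CDKN1A had 22.9 ± 1.13 and 18.4 ± 5.10 CPM, and the growth-arrest gene GADD45A 133.5 ± 0.0753 and 118.5 ± 17.2 CPM (SD, n = 2 each). From scramble replicate 2 alone, the miR-146a-5p means of CDKN1A and GADD45A differed by only 0.06 and 0.03 in log2 CPM.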

How the data were processed

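Total RNA of T24 cells was taken up in Trizol and made into Illumina TruSeq libraries, per the labels. Tools listed in the submitters' processing notes are HISAT2 2.0.1, HTSeq 0.6.1, cutadapt 1.9.1 and DESeq2, beside the build hg19, without roles. The authors deposited 1 table with an estimated count and a TPM value per gene and library, in which 34.3% of values of genes detected throughout were not whole numbers (tolerance 1e-09). It also holds the authors' fold change as a ratio, their log2 fold change, and their p-value and adjusted p-value, per the file headers. The tool behind fractional counts and the annotation release are not given in the sources used here. There were 0 unmapped sample columns.

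Estimated counts were rounded, genes were filtered with filterByExpr (minimum count 10, minimum total 15, leaving 14810), and edgeR 4.0.16 in R 4.3.3 tested all genes with the quasi-likelihood method, TMM factors and no covariate besides group, two-sided, at a Benjamini-Hochberg threshold of 0.05. Standard errors were derived from the F statistic. DESeq2 1.42.0, limma 3.58.1 (voom, and log2(TPM + 1)), DESeq2 size factors, no filter, GC and length offsets, a replicate block and fits without each library were alternatives. Log2 CPM used a prior count of 2. GC content, coordinates (1-based) and 3′ UTRs came from GENCODE release 29 on GRCh38, by gene identifier, and 131 tested genes had no GC value. Promoters and the microRNA came from RefSeq (GRCh38.p14), where CEBPD, C3 and CSF3 had no promoter entry. The fits were tested on simulated data.

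Groups and replicate numbers came from the labels. Replicate numbers are not said to mark a shared culture or day, and deviations of same-numbered libraries correlated at -0.145, so the block is an alternative only. The members and gene lists were chosen with earlier results of these data known. Named genes are the members, CEBPE, DDIT3, transcripts beside the members, for each list those past the DESeq2 threshold (up to 6) or else up to 3 of smallest edgeR p, and the 3 genes nearest in pattern. KRT7, KRT8, KRT18, KRT5, UPK3A, CDH1, CD3E, MS4A1, FCGR3A, ITGAM, PTPRC, LYZ, COL3A1, LUM, FAP, IRAK1, ATF4, PTX3, LCN2, GADD45A, NOC3L, MAK16 and DDX18 fall outside that rule and were chosen after their values were seen. COL1A2, DCN and PDGFRA also fall outside that rule and are given to complete the fibroblast list. Leukocyte, fibroblast, endothelial and epithelial marker lists served as checks.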

Additional observations from a re-analysis of the deposited data

How the results depend on the processing

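No member passed with all 4 libraries under edgeR, DESeq2, limma-voom, DESeq2 size factors, no filter, GC and length offsets, or limma on log2(TPM + 1). edgeR called 0 genes and DESeq2 52. With 1 library left out, edgeR called between 8 and 8421 genes and DESeq2 between 2 and 5349, most without scramble replicate 1, then without scramble replicate 2 (3343 and 1107). A single library left in a group takes its spread from the other group there.

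Signs of 4 members depended on the libraries. Over the edgeR fits leaving out 1 library, log2 fold changes ran from -1.01 to 0.061 for CEBPA, -0.274 to 0.933 for CEBPB, -0.432 to 0.614 for CEBPD, -0.0439 to 0.223 for CEBPG and 0.0616 to 1.96 for CEBPZ, and over the DESeq2 fits from -1.04 to 0.0441, -0.28 to 0.924, -0.437 to 0.606, -0.0540 to 0.216 and 0.0514 to 1.95. CEBPA turned positive without scramble replicate 2 (0.0481 with edgeR, 0.0441 with DESeq2) and without miR-146a-5p replicate 1 (0.0611 and 0.0351). CEBPB turned negative without scramble replicate 1, as well as without replicate 2 of miR-146a-5p (-0.0625 and -0.0795). CEBPD turned positive without scramble replicate 2, as well as without replicate 1 of miR-146a-5p (0.2399 and 0.2162). CEBPG turned negative without scramble replicate 2 and, with DESeq2, without miR-146a-5p replicate 2 (-0.0312). With all libraries, CEBPD was at 0.0612 with limma-voom, 0.246 with GC and length offsets and 0.0955 with limma on log2(TPM + 1), and CEBPG at -0.102 with the offsets, against -0.0051 and 0.0758 with edgeR. The cause of these reversals was not tested.

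With the replicate number as a block, edgeR called 5 genes, none of them a member, and DESeq2, a fit added after seeing the data, called 10. The blocked log2 fold change of CEBPD was 0.0618, or 0.2298 with the offsets as well, and that of CEBPG with block and offsets -0.0995. For CEBPA, CEBPB, CEBPG and CEBPZ the block gave -0.42, 0.30, 0.08 and 1.00. Pairing the numbers crosswise, also added after seeing the data, called 0 genes.

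CEBPA rests on 6.75 to 18.9 counts a library. With 2 libraries a group, edgeR's intervals reach 2-fold for every member but CEBPG, and a p that misses the threshold does not show equal levels.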
